A study of Homo sapiens with 33 samples.

Results

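Cultures of Karpas422 that had received only the vehicle DMSO for 72 h were compared with Karpas422 cultures at 0 h, across all 19775 genes measured on the array. The comparison used the 3 arrays titled DMSO 72 h and the 3 arrays titled 0 h, which are 6 of the 33 arrays of the series. Karpas422 is a human cell line from a diffuse large B cell lymphoma, described in the series title as EZH2 mutant. Every culture is therefore of 1 cell line, and both groups carry the EZH2 mutation. The other arrays are vehicle groups at 8, 24 and 48 h and 6 days and groups given 5 µM EED226, an inhibitor of the Polycomb repressive complex PRC2, at the same times. The groups follow the sample titles, which name EED226, although the series' design text speaks of an EZH2 inhibitor and the treatment protocol also names EI1. The growth medium in the labels is RPMI with fetal bovine serum. The labels call the replicates biological, but do not say whether cells at 0 h received DMSO or whether the medium was changed. Vehicle and time in culture cannot be told apart in the comparison with 0 h, so the same 72 h arrays were also set against vehicle at 8 h. Levels are log2 values, and a difference of 1 on that scale is 2-fold. Each gene is represented by 1 probe set, a group of short probes for its transcript.

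As background, cells kept in a flask use up nutrients, condition their medium and grow denser. Cells regulate sterol and lipid genes through the SREBP transcription factors, which are held back by INSIG proteins when membranes hold enough sterol. Interferon-stimulated genes are switched on by a complex of STAT proteins and IRF9 that binds a DNA element called the ISRE, or by IRF family members that bind it directly, and they encode antiviral effectors and the sensors and factors of the same pathway. NRF2 activates antioxidant genes such as NQO1 and HMOX1 in response to oxidative stress, and metallothioneins follow the supply of zinc and other metals.

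At 72 h in vehicle, interferon-stimulated genes rose together, up to 7.19-fold, and 35 of the 38 measured members of the interferon list passed the test, against 2.11% of all genes that rose. Genes of cholesterol and fatty acid synthesis rose by smaller steps, led by INSIG1 at 3.72-fold. Genes of the NRF2 response and metallothioneins were among those that fell, led by HMOX1 at 2.29-fold and NQO1 at 2.26-fold lower. HMOX1 lost its call without DMSO 72 h replicate 1 or without 0 h replicate 2. A fit on the 6 arrays alone kept 1 fall in the NRF2 list, NQO1, and 0 among iron and copper genes, which include the metallothioneins. It kept 29 rises in the interferon list. In the lists for ribosomal proteins, the respiratory chain, heat shock, NF-kB targets, B cell receptor signalling, PRC2 and the G2 and M phases, 0 members passed.

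In all, 598 of 19775 genes passed the test at an adjusted p under 0.05 (limma with Benjamini-Hochberg adjustment), which is 3.02%. Of these, 418 rose (2.11% of all genes) and 180 fell (0.91%). Quantile normalization applied again to the same values gave 474 rises and 394 falls, so the share of falls depends on how arrays are scaled. Leaving out 1 of the 6 arrays gave 324 to 525 calls, with 357 without DMSO 72 h replicate 1, 324 without DMSO 72 h replicate 3, 357 without 0 h replicate 1 and 358 without 0 h replicate 2. On the 6 arrays alone 155 genes passed, and of the named genes that passed in the full fit 25 of 39 rises and 5 of 27 falls (NQO1, KLF10, CIRBP, SNX18 and RBKS) did so. Changes of at least 2-fold among genes that passed were mostly rises, at 50 against 3 falls, and the 3 falls were HMOX1, NQO1 and MPEG1. The median difference over all genes was -0.01 on the log2 scale, with 9347 genes above 0 and 10428 below. Of all 19775 genes, 3032 had an unadjusted p under 0.05 (limma), which is the background for such counts in the lists. Values of the 3 vehicle arrays at 72 h lay wholly above or wholly below the 3 values at 0 h for 4290 genes, 21.7% of all. Arrays of a group correlated with r between 0.9955 and 0.9967 across probe sets at DMSO 72 h and between 0.9954 and 0.9961 at 0 h. The ACTB difference between 3' and 5' control probe sets, a sign of RNA integrity, was 3.05 to 3.16 at DMSO 72 h and 2.79 to 3.33 at 0 h, so the 72 h arrays lay inside the range at 0 h. For GAPDH it was 0.231 to 0.245 at DMSO 72 h and 0.241 to 0.292 at 0 h.

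**Figure D1:**
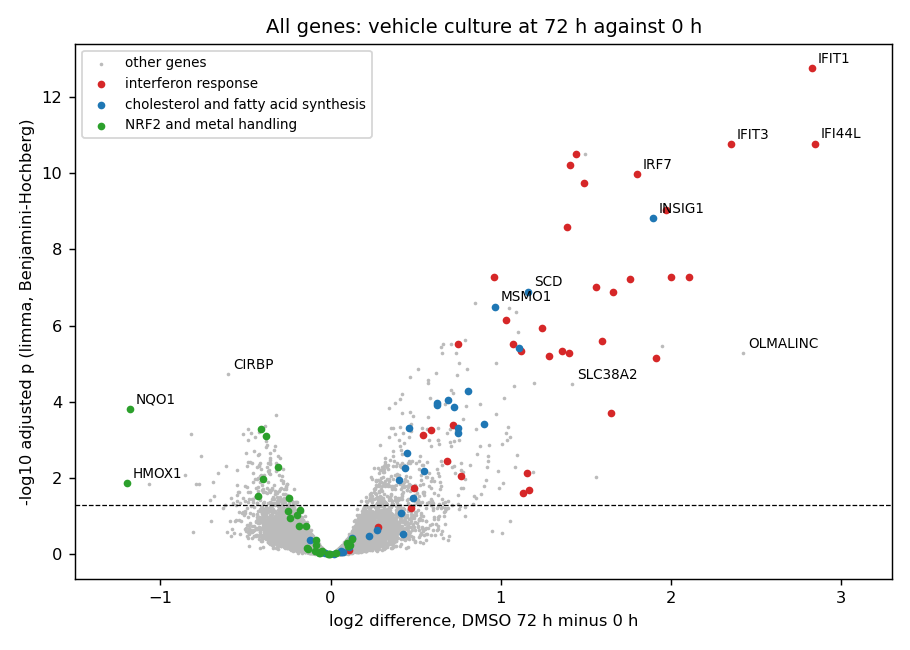
Each point is 1 gene, with the log2 difference DMSO 72 h minus 0 h on the x axis and -log10 of the adjusted p on the y axis; the dashed line is an adjusted p of 0.05. Interferon-list genes (red) reach 2.85 on the x axis, lipid synthesis genes (blue) reach 1.90, and NRF2 and metal genes (green) that pass lie below 0.

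One vehicle array stood apart in the amino acid response, the genes that ATF4 switches on when amino acids run short. The mean of the 36 measured members per array was 8.25, 8.25 and 9.03 at DMSO 72 h, against 8.33, 8.35 and 8.29 at 0 h, and at most 8.33 on any DMSO array at 8, 24 or 48 h or 6 days. DMSO 72 h replicate 3 was the highest of its group for 33 of the 36 members, against 36.8% of all genes, and 11 of the 27 genes of the array that lay more than 1 log2 unit above the mean of replicates 1 and 2 were in the list. CHAC1, which degrades glutathione, stood at 4.63, 4.81 and 7.61 on the DMSO 72 h arrays, against a mean of 4.73 at 0 h, and SESN2, a restraint on mTORC1, at 6.27, 6.23 and 8.64, against a mean of 6.35 at 0 h. ASNS, asparagine synthetase, stood at 10.58, 10.68 and 12.28 at DMSO 72 h, against a mean of 10.89 at 0 h, and ATF4 itself at 11.66, 11.63 and 12.52, against a mean of 11.67 at 0 h. None of these 4 passed the test. Without DMSO 72 h replicate 3 there were 249 rises and 75 falls among all 19775 genes. Of the rises, 32 were among 38 interferon genes, 11 among 19 cholesterol genes and 5 among 11 fatty acid genes. Of the falls, 2 were among 18 NRF2 genes and 4 among the 15 genes of the metal list. DMSO 72 h replicate 3 also lay apart from the mean of replicates 1 and 2 in other lists, by less than the 0.78 of the amino acid list. It was higher by 0.20 in the BCL2 family, 0.19 in G1 cyclins and CDK inhibitors and 0.15 in p53 targets. For heat shock it stood at -0.16, for MHC class I at -0.15 and for MYC and ribosome biogenesis at -0.13. The part of this array's amino acid response in other differences was not tested.

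The B cell identity of the line was checked with markers. All 7 measured B cell markers, among them MS4A1 (CD20) and PAX5, had group means of 8.36 or more at DMSO 72 h and 7.91 or more at 0 h, and the mean of the list per array was 9.90 to 10.07 at DMSO 72 h and 9.70 to 9.93 at 0 h. Of the 7, 0 passed the test (limma) and 3 had an unadjusted p under 0.05. Of 14 T and NK cell, 10 myeloid, 11 fibroblast or epithelial and 4 erythroid markers 0 passed, and 3, 1, 2 and 0 of them had an unadjusted p under 0.05. Over all 19775 genes, 3032 had an unadjusted p under 0.05 (limma). The means of the myeloid list were 3.48 to 3.60 at DMSO 72 h and 3.45 to 3.55 at 0 h. Those of the T and NK list were 4.94 to 5.06 at DMSO 72 h and 5.02 to 5.11 at 0 h. The fibroblast and epithelial list had 4.45 to 4.58 at DMSO 72 h and 4.42 to 4.61 at 0 h, and the erythroid list 4.41 to 4.67 at DMSO 72 h and 4.47 to 4.69 at 0 h. No myeloid or erythroid marker had a group mean above 6, whereas CD3D, CD3G and CD247 of the T cell list and COL1A1 and DCN of the fibroblast list did, in both groups. The highest T and NK cell marker averaged 10.39 at DMSO 72 h and 10.56 at 0 h. The highest fibroblast or epithelial marker averaged 12.67 at DMSO 72 h and 12.52 at 0 h. That is above the highest B cell marker, at 12.49 at DMSO 72 h and 12.25 at 0 h. In bulk RNA, a change in the number of cells that express a gene and a change in RNA per cell cannot be told apart.

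The interferon-stimulated genes were the largest group of strong rises. The top members are effectors of the IFIT family, which bind foreign RNA, and IFI44L, an interferon-induced gene. IFI44L stood at 7.54, 7.69 and 7.62 on the DMSO 72 h arrays, against 4.88, 4.75 and 4.68 at 0 h, a difference of 2.85 ± 0.17 (SE, n = 3 each; limma adjusted p = 1.71e-11). IFIT1 stood at 9.38, 9.36 and 9.58 at DMSO 72 h, against 6.80, 6.55 and 6.49 at 0 h, a difference of 2.83 ± 0.14 (limma adjusted p = 1.79e-13). The nearest arrays of the groups were 2.66 log2 units apart for IFI44L and 2.56 apart for IFIT1. IFIT3 stood at 9.29, 9.35 and 9.47 at DMSO 72 h, against 6.97, 7.05 and 7.03 at 0 h. IFIT2 and IFIT5 differed by 2.00 ± 0.18 and 1.97 ± 0.15. The other probe set of IFIT2 differed by 0.41 and that of IFIT5 by 1.15, so the size of these rises depends on the probe set. XAF1, an interferon-induced factor that promotes cell death, stood at 8.17, 8.09 and 7.99 at DMSO 72 h, against 6.01, 5.98 and 5.93 at 0 h. RSAD2 (viperin), which makes a chain terminator of viral RNA synthesis, differed by 1.91 ± 0.24. For each of these 7 genes the lowest vehicle array was above the highest array at 0 h. The rule that named them required this, and the groups did not overlap for 21.7% of all genes.

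Genes of the pathway's own control rose with the effectors. IRF7, the transcription factor that amplifies interferon production, stood at 7.94, 7.75 and 7.95 at DMSO 72 h, against 6.08, 6.20 and 5.97 at 0 h, a difference of 1.80 ± 0.12 (limma adjusted p = 1.05e-10). IRF9, the DNA-binding subunit of the interferon-activated complex, differed by 0.96 ± 0.09 (limma adjusted p = 5.32e-08). USP18, which removes ISG15 from proteins and restrains the interferon receptor, stood at 7.26, 7.25 and 7.12 at DMSO 72 h, against 5.53, 5.66 and 5.46 at 0 h. Its difference was 1.66 ± 0.16, and the groups did not overlap, which the rule that named it required. Among the sensors of foreign RNA, RIGI averaged 9.02 ± 0.03 at DMSO 72 h and 7.58 ± 0.13 at 0 h (SD, n = 3 each), and IFIH1 (MDA5), a dim probe set, averaged 3.60 ± 0.30 at DMSO 72 h and 2.84 ± 0.07 at 0 h. IFIH1 lost its call without DMSO 72 h replicate 2 (0.63, adjusted p = 0.0679), and by the mean of its probe sets (0.34, 0.136).

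The antiviral enzymes rose too. OAS2, which makes the second messenger that activates RNase L, stood at 7.54, 7.71 and 7.39 at DMSO 72 h, against 5.93, 5.98 and 5.45 at 0 h. Its relatives OAS1 and OAS3 differed by 1.39 ± 0.11 and 1.29 ± 0.16, and OASL by 1.59 ± 0.18. MX1 and MX2, dynamin-like proteins that block incoming viral capsids, differed by 1.07 ± 0.12 and 1.12 ± 0.14. EIF2AK2 (PKR), the kinase that halts translation on double-stranded RNA, differed by 0.72 ± 0.12. HERC6, an E3 ligase of the family that attaches ISG15 (in mouse it is the main one), stood at 7.35, 7.26 and 7.21 at DMSO 72 h, against 5.63, 6.04 and 5.22 at 0 h. Some small effectors had a wider spread at 0 h. ISG15, the ubiquitin-like modifier, averaged 12.79 ± 0.06 at DMSO 72 h and 11.63 ± 0.59 at 0 h (SD, n = 3 each), and IFI6, a mitochondrial inhibitor of cell death, averaged 11.17 ± 0.10 at DMSO 72 h and 9.999 ± 0.69 at 0 h. Their adjusted p values were 0.00739 for ISG15 and 0.0201 for IFI6 (limma). ISG15 lost its call without 0 h replicate 1 (1.04, adjusted p = 0.0557) or 3 (0.94, 0.0593). IFI6 lost it without DMSO 72 h replicate 1 (1.18, 0.0645) or 3 (1.11, 0.0925) and 0 h replicate 1 (1.02, 0.113) or 3 (0.92, 0.122).

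Of the 38 measured interferon genes, 35 rose, none fell and 3 did not pass. The median of the 38 differences was 1.32 on the log2 scale, against -0.01 over all genes. The 3 that did not pass were LAMP3 at 0.47 ± 0.14 (limma adjusted p = 0.0588), ISG20 at 0.28 ± 0.11 and HERC5 at 0.11 ± 0.13, and HERC5 was dim, at 2.53 at DMSO 72 h and 2.42 at 0 h. The mean of the list per array was 8.57 to 8.61 at DMSO 72 h and 7.18 to 7.38 at 0 h. With 1 of the 6 arrays left out, 31 to 35 members rose. A fit on the 6 arrays alone, with fewer degrees of freedom, had 29.

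**Figure D2:**
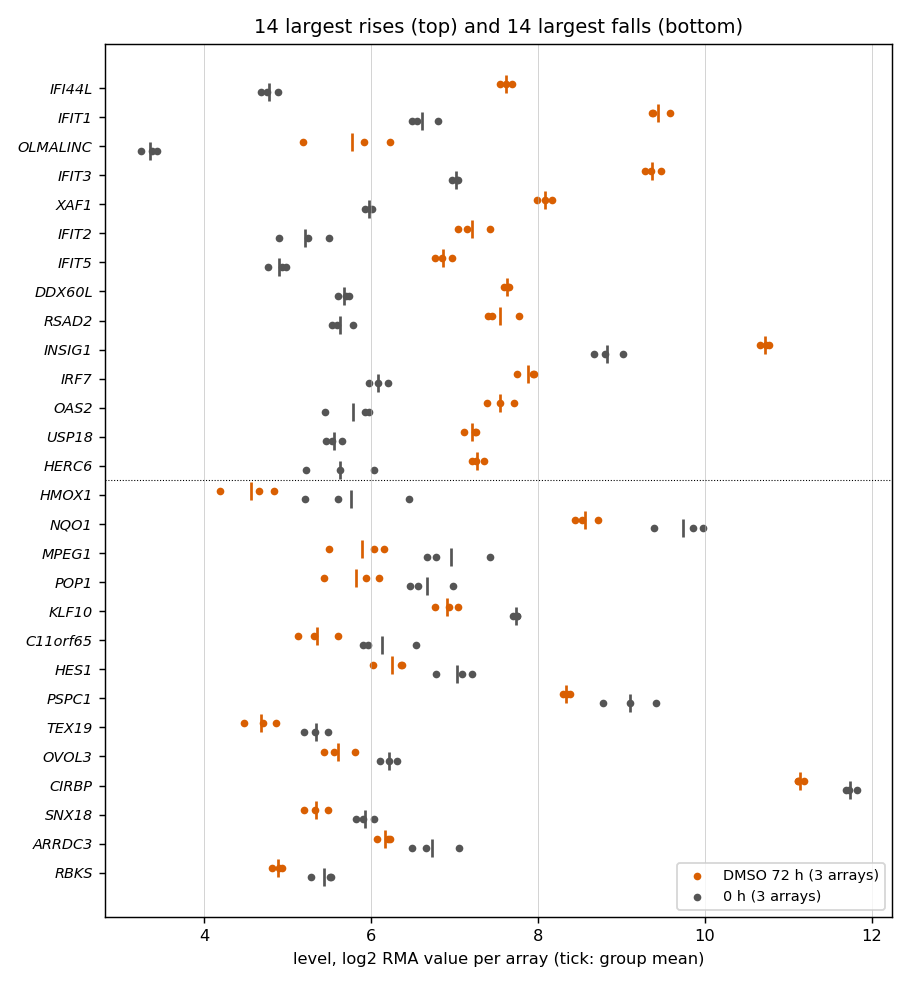
Log2 levels (x axis) on the 3 DMSO 72 h arrays (orange) and the 3 arrays at 0 h (grey) for the 14 largest rises and the 14 largest falls among genes that passed the test and did not overlap; ticks are group means. Rises in the upper panel run up to IFI44L at 2.85 log2 units, whereas falls in the lower panel run to HMOX1 at 1.19 units lower, with wider spread between arrays for HMOX1, MPEG1, POP1 and C11orf65.

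The promoters of the interferon genes are shown because the ISRE is the known element through which the pathway acts. The ISRE core was searched as GAAANNGAAA on both strands, in RefSeq windows of 250 bases before to 50 after each gene's start (GRCh38.p14), which 15382 of the 19775 genes had. It was found in 20 of the 30 interferon genes with a window (66.7%), against 453 of all 15382 windows (2.95%). Among all 341 rises with a window, 37 held it (10.9%), and among the 313 rises outside the interferon list 19 did (6.07%). Among falls with a window, 1 held it (0.694%). These shares describe letters in a window and not binding. The 250 bases before the start are printed 5' to 3' on the gene's strand, in lower case, with the letters that match the core on either strand in capitals.
IFI44L, chr1:78620198-78620447, plus strand: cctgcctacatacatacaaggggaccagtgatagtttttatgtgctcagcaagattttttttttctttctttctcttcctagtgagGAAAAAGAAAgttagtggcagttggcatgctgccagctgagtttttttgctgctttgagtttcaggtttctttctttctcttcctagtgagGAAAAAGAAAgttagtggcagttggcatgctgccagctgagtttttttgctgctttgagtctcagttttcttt
IFIT1, chr10:89392373-89392622, plus strand: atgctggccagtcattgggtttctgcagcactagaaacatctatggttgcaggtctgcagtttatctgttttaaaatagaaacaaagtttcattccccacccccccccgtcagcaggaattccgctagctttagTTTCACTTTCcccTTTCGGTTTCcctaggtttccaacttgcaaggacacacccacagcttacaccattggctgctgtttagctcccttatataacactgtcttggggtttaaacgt
IFIT3, chr10:89327747-89327996, plus strand: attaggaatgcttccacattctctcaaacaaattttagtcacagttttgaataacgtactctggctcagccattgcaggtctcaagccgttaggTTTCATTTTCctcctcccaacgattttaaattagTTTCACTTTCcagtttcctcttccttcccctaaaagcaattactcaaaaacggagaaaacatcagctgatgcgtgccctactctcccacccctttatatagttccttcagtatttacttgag
ISG15, chr1:1013247-1013496, plus strand: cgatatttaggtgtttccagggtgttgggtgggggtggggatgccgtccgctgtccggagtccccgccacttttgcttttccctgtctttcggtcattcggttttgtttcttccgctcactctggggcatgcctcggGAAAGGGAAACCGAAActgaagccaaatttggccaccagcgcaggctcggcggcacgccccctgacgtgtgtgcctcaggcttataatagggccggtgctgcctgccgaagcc
OAS3, chr12:112938224-112938473, plus strand: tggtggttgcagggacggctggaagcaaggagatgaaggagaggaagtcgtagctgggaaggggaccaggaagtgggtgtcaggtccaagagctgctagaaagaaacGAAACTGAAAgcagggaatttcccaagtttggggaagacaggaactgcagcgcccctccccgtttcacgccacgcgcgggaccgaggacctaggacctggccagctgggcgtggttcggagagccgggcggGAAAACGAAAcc
RSAD2, chr2:6865635-6865884, plus strand: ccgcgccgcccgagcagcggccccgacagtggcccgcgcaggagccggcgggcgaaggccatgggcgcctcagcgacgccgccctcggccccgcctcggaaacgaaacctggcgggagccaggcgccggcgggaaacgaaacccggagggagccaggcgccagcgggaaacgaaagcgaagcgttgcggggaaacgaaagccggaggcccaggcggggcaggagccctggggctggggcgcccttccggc
Each of the first 5 holds 2 matches, and in ISG15 they overlap into 1 block. The first bases of the matches lie at -164 and -73 in IFI44L, at -116 and -103 in IFIT1, at -156 and -122 in IFIT3, at -113 and -107 in ISG15, and at -143 and -12 in OAS3, counted from the RefSeq start. The pair in IFI44L lies within stretches that repeat in the window. RSAD2, which rose by 1.91, and RIGI have no match to these letters in the window, and MX1 has none in the 250 bases before its start.

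Some rises were neighbours in the genome. Among 19716 measured genes placed in RefSeq order, 62 of the 418 rises lay in 29 runs of at least 2 adjacent rises. With 2.11% of all genes rising, some runs would occur in any order. Their number in a random order was not counted. The longest run was IFIT2, IFIT3, IFIT1 and IFIT5 on chromosome 10, followed by runs of 3 at OAS1, OAS3 and OAS2 on chromosome 12 and at LINC00487, CMPK2 and RSAD2 on chromosome 2. Pairs included IFI44L with IFI44 on chromosome 1, MX2 with MX1 on chromosome 21, DDX60 with DDX60L on chromosome 4, SAMD9 with SAMD9L on chromosome 7 and PARP9 with DTX3L on chromosome 3. Several of these are families of duplicated genes, whose probes can share sequence. A further pair joined SCD and OLMALINC on chromosome 10. OLMALINC, a long noncoding RNA, stood at 5.91, 5.18 and 6.23 at DMSO 72 h, against 3.44, 3.38 and 3.24 at 0 h, a difference of 2.42 ± 0.30 (limma adjusted p = 5.30e-06). Its groups were 1.74 log2 units apart at the nearest arrays, and the vehicle arrays spread over 1.05 units, against 0.19 at 0 h.

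In the lipid pathways, the SREBP genes, INSIG1 and many of the enzymes rose. INSIG1, the sterol-regulated brake on SREBP processing and itself an SREBP target, stood at 10.74, 10.66 and 10.77 at DMSO 72 h, against 9.02, 8.67 and 8.80 at 0 h, a difference of 1.90 ± 0.15 (limma adjusted p = 1.51e-09). The 3 vehicle arrays lay within 0.11 of each other, and the lowest was 1.64 above the highest at 0 h. SREBF1, the SREBP gene that drives fatty acid synthesis, stood at 7.53, 7.17 and 7.63 at DMSO 72 h, against 6.39, 6.21 and 6.41 at 0 h, a difference of 1.11 ± 0.13. SREBF2, which drives cholesterol synthesis, averaged 7.54 ± 0.05 at DMSO 72 h and 7.11 ± 0.05 at 0 h (SD, n = 3 each), a difference of 0.44 ± 0.09 (limma adjusted p = 0.00552).

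Of the 19 measured cholesterol genes, 13 rose, against 2.11% of all genes, none fell and the median difference was 0.48. The rises spanned the pathway. At its entry HMGCS1 differed by 0.55 ± 0.12, IDI1 and FDPS, which make and join isoprene units, by 0.81 ± 0.11 and 0.62 ± 0.09, and SQLE and LSS, which make and close the sterol skeleton, by 0.62 ± 0.09 and 0.69 ± 0.10. Among the late steps, MSMO1 stood at 11.42, 11.23 and 11.21 at DMSO 72 h, against 10.45, 10.22 and 10.28 at 0 h, and DHCR7, the last reductase, differed by 0.73 ± 0.11. STARD4, a carrier of cholesterol between membranes, differed by 0.75 ± 0.13. The 6 that did not pass were MVD, EBP, TM7SF2, PMVK, MVK and TMEM97, from 0.43 down to -0.03. Leaving out 1 of the 6 arrays gave 11 to 13 rises, and the fit on 6 arrays gave 8. HMGCS1, at 0.46 without 0 h replicate 3, then lost its call by a margin that rounds to the threshold.

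In the fatty acid list, 5 of 11 rose, again against 2.11% of all genes, none fell and the median was 0.41. SCD, which desaturates fatty acids, stood at 11.55, 11.27 and 11.51 at DMSO 72 h, against 10.24, 10.37 and 10.24 at 0 h, a difference of 1.16 ± 0.11 (limma adjusted p = 1.28e-07). FADS2, another desaturase, differed by 0.90 ± 0.15, FASN, the synthase, by 0.75 ± 0.12 and ACACA, the carboxylase that commits carbon to the pathway, by 0.46 ± 0.08. ACLY, which supplies acetyl-CoA, did not pass, at 0.12 ± 0.06. FADS2 has 1 other probe set, which had the opposite sign.

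SREBF2 itself is shown because its promoter was the only one among 18 cholesterol genes with a window to hold the sterol element core, searched as TCACNCCAC on both strands (5.56%, against 1.09% of all 15382 windows). None of the 9 fatty acid genes with a window held it. The capitals mark the match, whose first base lies at -133.
SREBF2, chr22:41832855-41833104, plus strand: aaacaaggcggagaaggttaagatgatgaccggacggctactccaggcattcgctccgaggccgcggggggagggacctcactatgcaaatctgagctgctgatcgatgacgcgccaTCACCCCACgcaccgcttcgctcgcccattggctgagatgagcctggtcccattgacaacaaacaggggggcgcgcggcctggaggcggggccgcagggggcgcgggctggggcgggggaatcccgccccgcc
Sterol elements vary in sequence, and a window without these letters says nothing about SREBP binding.

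The falls were fewer and smaller. NQO1, a quinone reductase and classic NRF2 target, stood at 8.53, 8.72 and 8.44 at DMSO 72 h, against 9.86, 9.39 and 9.98 at 0 h, a difference of -1.18 ± 0.18 (limma adjusted p = 0.000155). Every vehicle array was below every array at 0 h, which the rule that named NQO1 required. Leaving out any of the 6 arrays kept the call. HMOX1, which degrades heme, stood at 4.19, 4.84 and 4.66 at DMSO 72 h, against 5.204, 6.45 and 5.604 at 0 h. Its difference of -1.19 ± 0.28 passed (limma adjusted p = 0.0134) but depended on single arrays, with -1.01 and adjusted p = 0.0997 without DMSO 72 h replicate 1 and -0.84 and 0.139 without 0 h replicate 2. In all, 4 of 18 NRF2 genes fell, beside 0.91% of all genes, and none rose, at a median of -0.12. The other 2 were GCLM and TXNRD1, a subunit of the glutathione-making ligase and the thioredoxin reductase, at -0.42 ± 0.11 and -0.24 ± 0.06. GCLM lost its call without each array except DMSO 72 h replicate 2 (-0.44 to -0.33, adjusted p between 0.0700 and 0.187), and TXNRD1 without each array except 0 h replicate 3 (-0.25 to -0.23, 0.0677 to 0.122). With 1 array left out the list had 1 to 3 falls. By the mean of probe sets GCLM was -0.36 (0.116) and TXNRD1 -0.10 (0.573). NFE2L2, the gene for NRF2, did not pass, at 0.12 ± 0.08.

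Among iron and copper genes, 4 of 15 fell, against 0.91% of all genes, and none rose, and all 4 were metallothioneins, which bind zinc and copper. The list has 7 measured genes whose symbol begins with MT, and those beyond the 4 did not pass. MT1X stood at 11.95, 12.01 and 12.05 at DMSO 72 h, against 12.51, 12.43 and 12.30 at 0 h, a difference of -0.41 ± 0.07 (limma adjusted p = 0.000513). MT1F, MT1H and MT1G differed by -0.40 ± 0.09, -0.38 ± 0.07 and -0.31 ± 0.06. These changes were at most 1.33-fold, and the groups did not overlap, which held for 21.7% of all genes. MT1F lost its call without 0 h replicate 1 (-0.36, adjusted p = 0.0663) or 2 (-0.35, 0.0773), and MT1G was -0.18 (0.332) by the mean of its probe sets. Metallothionein genes are near-identical copies, and several of their probe sets can match more than 1 of them, so the 4 are not independent measurements. The fit on 6 arrays called none of them. Transferrin receptor TFRC and ferritin FTL, genes of iron handling, did not pass, at -0.05 ± 0.07 and -0.18 ± 0.05.

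Other falls named by size included HES1, a transcription factor of the Notch pathway, KLF10, a TGF-beta-induced factor, and CIRBP, an RNA-binding protein induced by cold. KLF10 stood at 6.76, 7.04 and 6.94 at DMSO 72 h, against 7.74, 7.71 and 7.75 at 0 h. CIRBP stood at 11.12, 11.12 and 11.19 at DMSO 72 h, against 11.82, 11.73 and 11.69 at 0 h, a difference of -0.60 ± 0.08 (limma adjusted p = 1.88e-05). Of its 4 other probe sets 2 had the opposite sign, and the mean of its probe sets gave -0.25 with adjusted p = 0.0911. PSPC1, a paraspeckle protein, showed the same limit, with 3 of 4 other probe sets opposite and -0.15 (adjusted p = 0.550) by their mean. MPEG1, a pore-forming protein of macrophages, stood at 5.49, 6.16 and 6.04 at DMSO 72 h, against 6.67, 7.43 and 6.77 at 0 h. It lost its call without DMSO 72 h replicate 1 (-0.86, adjusted p = 0.115) and without 0 h replicate 2 (-0.83, 0.125), and was -0.84 (0.0517) by the mean of its probe sets. HES1 lost it without DMSO 72 h replicate 3 (-0.66, 0.106) and 0 h replicate 1 (-0.74, 0.0632) or 2 (-0.68, 0.0926). POP1, an RNase P subunit, lost it without DMSO 72 h replicate 3 (-0.66, 0.0935) and 0 h replicate 1 (-0.70, 0.0753). The list of 14 is completed by OVOL3 at -0.61 ± 0.13, which kept its call without each array, and by 5 genes that did not. TEX19 lost it without DMSO 72 h replicate 2 (-0.56) or 0 h replicate 2 (-0.58), and C11orf65 without DMSO 72 h replicate 1 or 3 or 0 h replicate 1 (-0.77 to -0.59). SNX18 lost it without replicate 1 or 2 of either group (-0.59 to -0.51), ARRDC3 without each array except 0 h replicate 2 (-0.61 to -0.41) and RBKS without each except 0 h replicate 3 (-0.58 to -0.51). By the mean of probe sets SNX18 was -0.23 (adjusted p = 0.364) and ARRDC3 -0.57 (0.0508).

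**Figure D3:**
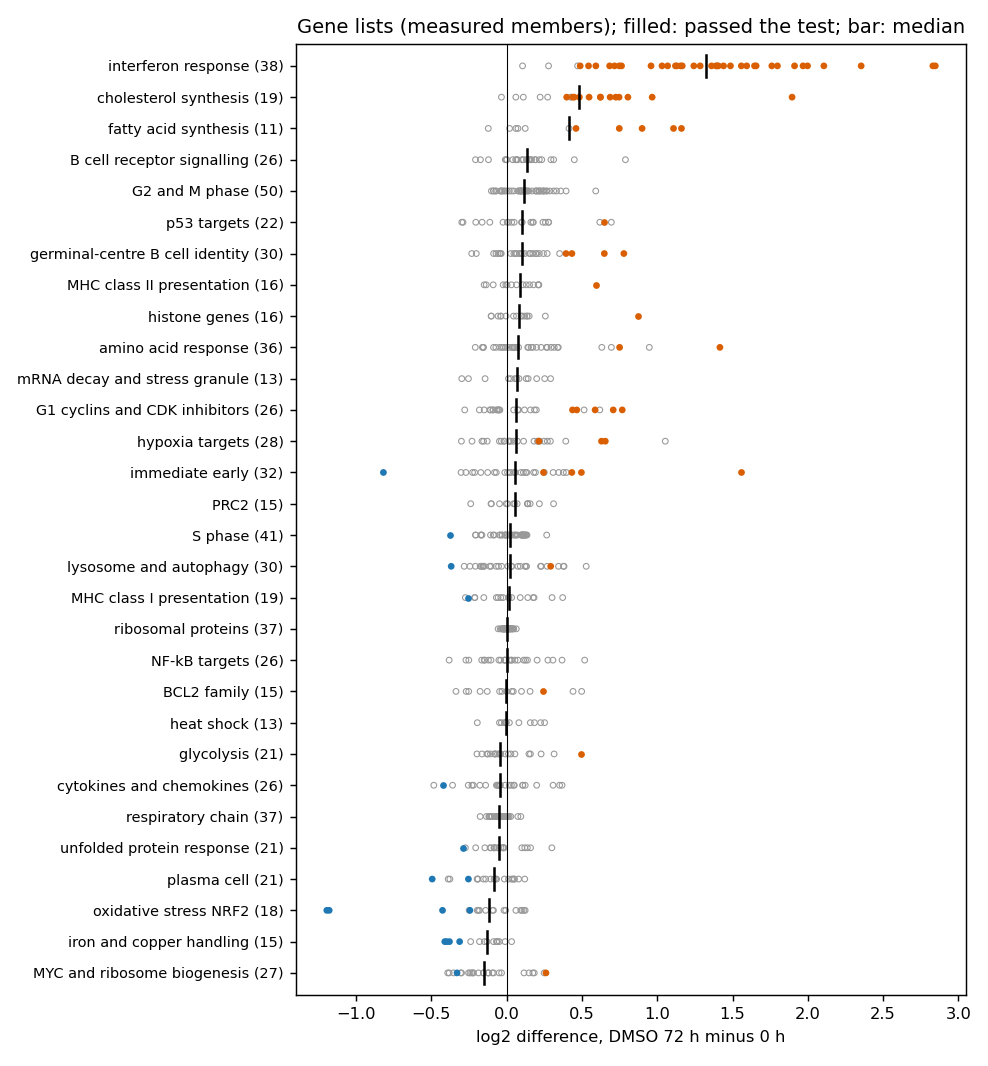
Log2 difference DMSO 72 h minus 0 h (x axis) for the measured members of 30 gene lists (y axis, number measured in brackets); filled points passed the test, orange for rises and blue for falls, open grey points did not, and black bars are list medians. The interferon list has a median of 1.32, the cholesterol list 0.48 and the fatty acid list 0.41, and the other medians lie between -0.15 and 0.13.

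The cell cycle lists gave few calls, where 2.11% of all genes rose and 0.91% fell. Of all 19775 genes, 3032 had an unadjusted p under 0.05 (limma). Of 50 genes of the G2 and M phases 0 passed (limma) and 14 had an unadjusted p under 0.05, all 14 above 0. The median was 0.12, and CDC25C, a mitotic phosphatase, differed by 0.59 ± 0.17 (limma adjusted p = 0.0506). Of 41 S phase genes 1 fell, CCNE1 (cyclin E), at -0.38 ± 0.09. Of 26 G1 cyclins and CDK inhibitors 5 rose, against 2.11% of all genes, and none fell. Those 5 were YPEL3, a growth suppressor, CCNG2 (cyclin G2), which is high in arrested cells, CDKN1B (p27), the inhibitor of CDK2, E2F5, a repressive E2F, and BTG1, an antiproliferative factor. CCNG2 stood at 10.09, 10.04 and 10.40 at DMSO 72 h, against 9.65, 9.28 and 9.48 at 0 h, and CDKN1B differed by 0.59 ± 0.16. CDKN1B lost its call without DMSO 72 h replicate 3 (0.39, adjusted p = 0.251) and 0 h replicate 1 (0.66, 0.0506) or 2 (0.43, 0.234), and BTG1, at 0.44 ± 0.10, without DMSO 72 h replicate 3 (0.33, 0.112) or 0 h replicate 2 (0.36, 0.0951). E2F5 differed by 0.47 ± 0.07 and kept its call without each array in turn, as did CCNG2, whereas YPEL3, at 0.77, lost it without DMSO 72 h replicate 3 (0.67, adjusted p = 0.0574) and without 0 h replicate 2 (0.62, 0.0652). The other probe set of YPEL3 had the opposite sign, at -0.26, and the mean of probe sets gave 0.25 (0.463) for YPEL3, 0.33 (0.0613) for BTG1 and -0.28 (0.0958) for CCNE1. CCNE1 lost it without DMSO 72 h replicate 2 (-0.37, 0.0572) or 3 (-0.34, 0.101) and 0 h replicate 1 (-0.34, 0.0985) or 3 (-0.34, 0.0763).

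In the growth lists, MYC rose by 0.26 ± 0.06 and ODC1, the polyamine enzyme and a known MYC target, stood at 12.46, 12.50 and 12.43 at DMSO 72 h, against 12.86, 12.77 and 12.74 at 0 h, a difference of -0.33 ± 0.06 (limma adjusted p = 0.00144). Of 27 MYC and ribosome biogenesis genes these were the 2 calls, where 2.11% of all genes rose and 0.91% fell. In that list 21 of the 27 were below 0, at a median of -0.15. At an unadjusted p under 0.05 there were 16, of which 2 were above 0, beside 3032 of all 19775 genes. With quantile normalization applied again 9 members fell, where 394 of all 19775 genes did. MYC lost its call without DMSO 72 h replicate 1 (0.24, adjusted p = 0.0915) or 3 (0.27, 0.0518) and without 0 h replicate 1 (0.26, 0.0663) or 3 (0.24, 0.0757). All 37 ribosomal protein genes lay between -0.06 and 0.06, and 0 passed (limma), also at an unadjusted p under 0.05. Of 37 respiratory chain genes 0 passed and 1 had an unadjusted p under 0.05, at a median of -0.05. PFKFB4, which makes an activator of glycolysis, was the 1 call among 21 glycolysis genes, at 0.50 ± 0.14, and lost it without DMSO 72 h replicate 1 (0.40, 0.211) or 3 (0.47, 0.135) and without each of the 0 h arrays (0.45 to 0.52). The other probe set of PFKFB4 had the opposite sign, at -0.09, and the mean of both gave 0.20 (0.405).

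The nutrient and stress lists held few calls, where 2.11% of all genes rose and 0.91% fell, and the amino acid list moved on 1 array. SLC38A2, an amino acid transporter induced when amino acids run short, stood at 10.42, 10.21 and 11.41 at DMSO 72 h, against 9.07, 9.26 and 9.46 at 0 h, a difference of 1.42 ± 0.19 (limma adjusted p = 3.40e-05). Replicate 3 was the highest of its group, and without it the difference was 1.05 (adjusted p = 0.000115). CTH, an enzyme of cysteine synthesis, stood at 8.03, 8.03 and 9.40 at DMSO 72 h, against 7.82, 7.68 and 7.71 at 0 h, so its difference of 0.75 ± 0.19 rests on replicate 3, without which it was 0.30 (adjusted p = 0.0867). It also lost its call without each of the 0 h arrays (0.72 to 0.79, adjusted p between 0.0627 and 0.104). EGR1, an immediate early factor, had the same array highest, at 7.21, 7.03 and 8.55 at DMSO 72 h, against 5.86, 6.87 and 5.37 at 0 h. Its difference of 1.56 ± 0.35 lost its call without DMSO 72 h replicate 3 (1.08, 0.109) and without 0 h replicate 1 (1.47, 0.0510) or 3 (1.23, 0.0723). CEBPG and EIF4EBP1, also highest on replicate 3, did not pass, at 0.32 ± 0.12 and 0.29 ± 0.14. In all, 2 of 36 amino acid response genes rose and none fell, at a median of 0.07. Without replicate 3 the median was -0.07, with SLC38A2 as the 1 rise and ATF5 as the 1 fall (-0.60, adjusted p = 0.0376). Of 28 hypoxia targets 3 rose, BNIP3L, a mitophagy receptor, at 0.66 ± 0.08, ANKRD37 at 0.63 ± 0.11 and WSB1 at 0.21 ± 0.06, the last losing its call without DMSO 72 h replicate 2 (0.19, 0.151) or 3 (0.18, 0.189) and 0 h replicate 1 (0.18, 0.179) or 2 (0.22, 0.102) and, at 0.16 (0.541), by the mean of its probe sets. Of 21 unfolded protein response genes 1 fell, CRELD2 at -0.29 ± 0.08, which lost its call without each array except 0 h replicate 2 (-0.33 to -0.25). Of 13 heat shock genes 0 passed (limma) and 2 had an unadjusted p under 0.05, beside 3032 of all 19775 genes.

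Germinal-centre genes, which mark the B cell stage that many lymphomas of this kind resemble, held 4 rises and no falls among 30, where 2.11% of all genes rose. STAP1, a signalling adaptor, stood at 10.12, 10.08 and 10.09 at DMSO 72 h, against 9.45, 9.26 and 9.63 at 0 h, a difference of 0.65 ± 0.08 (limma adjusted p = 3.64e-06). SERPINA9, a germinal-centre protease inhibitor, differed by 0.78 ± 0.12 and MYBL1 by 0.43 ± 0.09, and GCSAM by 0.39 ± 0.11. By the mean of its probe sets MYBL1 was 0.18 (adjusted p = 0.330). GCSAM lost its call without DMSO 72 h replicate 2 or 3 and 0 h replicate 1 or 2 (0.34 to 0.41, adjusted p between 0.0860 and 0.162). Of 21 plasma cell genes 2 fell, beside 0.91% of all genes. These were FKBP11 and SEC11C, which serve the secretory pathway, at -0.49 ± 0.10 and -0.25 ± 0.07. FKBP11 lost its call without DMSO 72 h replicate 3 (-0.42, adjusted p = 0.0516), and SEC11C without that array (-0.18, 0.231) and without 0 h replicate 1 (-0.21, 0.162) or 3 (-0.24, 0.0903), and at -0.26 (0.164) by the mean of its probe sets. Of 26 B cell receptor signalling genes and of 26 NF-kB targets 0 passed (limma), with 8 and 2 at an unadjusted p under 0.05. At that unadjusted threshold there were 3032 of all 19775 genes. CIITA, the master regulator of MHC class II genes, was the 1 call of 16 in its list, at 0.60 ± 0.17, but both of its other probe sets had the opposite sign and the call was lost without each array except 0 h replicate 3 (0.43 to 0.65, adjusted p between 0.0798 and 0.249). The mean of its probe sets gave 0.08 (0.767). Of 19 MHC class I genes 1 fell, the chaperone CANX at -0.26 ± 0.06, which lost its call without DMSO 72 h replicate 3 (-0.22, 0.105) and without 0 h replicate 1 (-0.24, 0.0663) or 3 (-0.25, 0.0505) and, at -0.21 (0.182), by the mean of its probe sets.

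The remaining lists held few calls, where 2.11% of all genes rose and 0.91% fell. H1-10, a replication-independent linker histone, was the 1 rise of 16 histone genes, at 9.01, 8.77 and 9.09 at DMSO 72 h, against 7.89, 8.23 and 8.11 at 0 h, a difference of 0.88 ± 0.13 (limma adjusted p = 0.000111). TP53INP1 was the 1 rise of 22 p53 targets, at 0.65 ± 0.13, and by the mean of its probe sets it was 0.29 (adjusted p = 0.190). In the lysosome and autophagy list of 30, TFEB, its master regulator, fell by 0.37 ± 0.07 and GABARAPL2 rose by 0.29 ± 0.07, GABARAPL2 losing its call without DMSO 72 h replicate 3 (0.27, adjusted p = 0.0756) and 0 h replicate 1 (0.27, 0.0718). MCL1, the 1 rise of 15 BCL2 family genes at 0.25 ± 0.06, lost its call without each array except 0 h replicate 3 (0.21 to 0.26) and was 0.08 (0.743) by the mean of its probe sets. It was also among 4 rises and 1 fall of 32 immediate early genes, with JUND at 0.50 ± 0.13, EGR1, DUSP1 at 0.43 ± 0.10 and the fall KLF10; DUSP1 lost its call without each array except DMSO 72 h replicate 1 and 0 h replicate 1 (0.40 to 0.43), and JUND without DMSO 72 h or 0 h replicate 1 or 3 (0.41 to 0.50). By the mean of probe sets DUSP1 was 0.14 (0.525) and JUND 0.096 (0.765). CCR7, the 1 fall of 26 cytokine and chemokine genes, was dim, at 2.05 at DMSO 72 h and 2.47 at 0 h, and lost its call without DMSO 72 h replicate 2 (-0.33, 0.136) or 3 (-0.44, 0.0642) and 0 h replicate 2 (-0.41, 0.0782) or 3 (-0.35, 0.108). Of 13 mRNA decay genes 0 passed (limma) and 2 had an unadjusted p under 0.05, beside 3032 of all 19775 genes. The PRC2 list of 15, which holds the complex that EED226 inhibits, had 0 calls and 3 members at an unadjusted p under 0.05, with EED at 0.01 ± 0.05, EZH2 at 0.14 ± 0.08, EZH1 at 0.07 ± 0.08 and SUZ12 at 0.16 ± 0.07 (limma adjusted p between 0.309 and 0.973).

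Against vehicle at 8 h, where both groups had received DMSO, the 72 h arrays gave 370 calls, 1.87% of genes, with 259 rises (1.31%) and 111 falls (0.561%). This comparison shares its 72 h arrays with the one above, so the values are given side by side and not as a second test. The interferon list had 35 rises at a median of 1.29, the cholesterol list 13 at 0.53, the fatty acid list 6 at 0.45, the NRF2 list 3 falls at -0.11 and the metal list 4 falls at -0.17. IFIT1 differed by 2.78 between DMSO 72 h and DMSO 8 h, INSIG1 by 1.84, NQO1 by -1.21 and CIRBP by -0.53. Vehicle at 8 h lay near 0 h for each of these genes, with mean levels of 6.67 for IFIT1, 8.88 for INSIG1, 9.78 for NQO1 and 11.68 for CIRBP.

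Between DMSO 72 h and DMSO 48 h no gene passed (limma, smallest adjusted p = 0.653), with 712 genes at an unadjusted p under 0.05. Arrays of the same replicate number deviated weakly together in this pair of groups (r of 0.11 to 0.188). With the number as a block 1 gene passed (limma), INSIG1, at 0.68 (adjusted p = 0.0193). A comparison that did not pass does not show equal levels. The means of the interferon list per array were 7.13 to 7.51 at 8 h, 7.69 to 7.95 at 24 h, 8.33 to 8.50 at 48 h, 8.57 to 8.61 at 72 h and 8.26 to 8.65 at 6 days of vehicle. Those of the cholesterol list were 8.50 to 8.58, 8.61 to 8.66, 8.73 to 8.90, 9.03 to 9.18 and 8.98 to 9.24 at the same times. From 24 h to 72 h both lists were higher at each time than at the time before, without overlap, and at 6 days both overlapped their 72 h range. The NRF2 list ran the other way, at 9.16 to 9.22 at 8 h, 9.04 to 9.16 at 24 h, 8.999 to 9.08 at 48 h, 8.95 to 9.01 at 72 h and 8.90 to 9.01 at 6 days. With EED226 at 72 h the interferon list stood at 10.64 to 10.85, above vehicle at the same time.

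**Figure D4:**
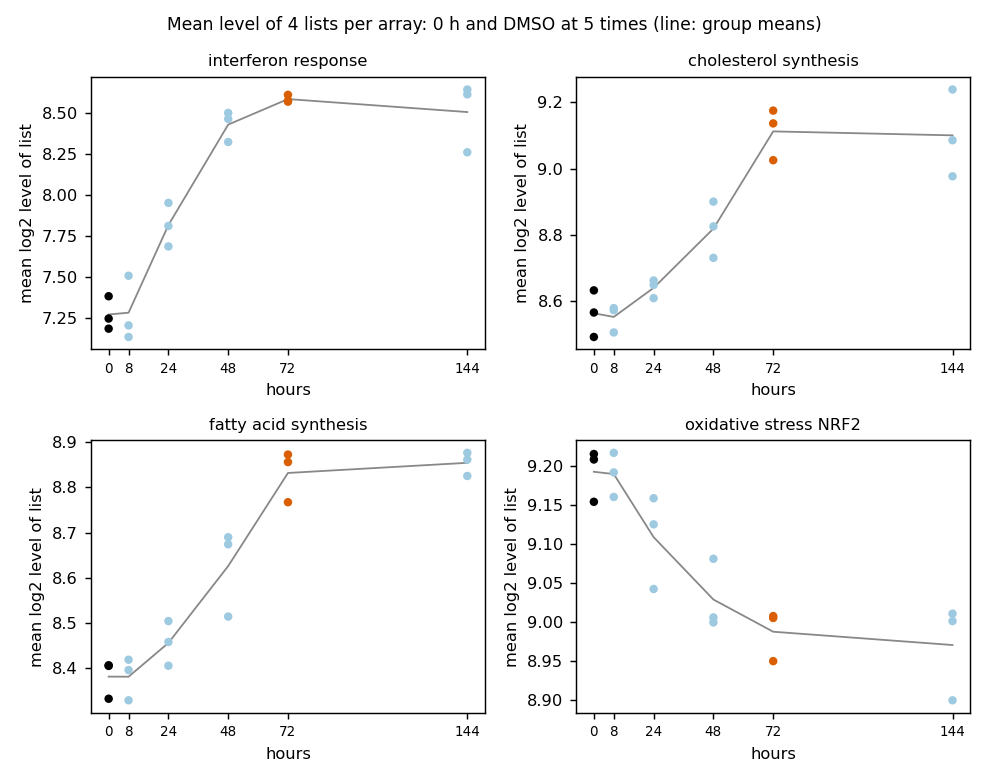
Mean log2 level (y axis) of the measured members of 4 gene lists on each array at 0 h (black) and in DMSO from 8 h to 6 days (x axis, hours; 72 h in orange, other times in light blue); lines join group means. The interferon list reaches 8.57 to 8.61 at 72 h against 7.18 to 7.38 at 0 h, and the NRF2 list 8.95 to 9.01 at 72 h against 9.15 to 9.22 at 0 h.

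The arrays at 8 and 48 h of vehicle are in neither group of the comparison with 0 h and gave a second look at time in culture. DMSO 48 h minus DMSO 8 h gave 95 calls (0.48%), with 79 rises (0.399%) and 16 falls (0.0809%). Of these, 77 rises and 11 falls were also calls of the 72 h comparison, which is 18.4% of its 418 rises and 97.5% of the 79, and 6.11% of its 180 falls and 68.8% of the 16. The interferon list had 33 rises at a median of 1.17, the cholesterol list 2 and the fatty acid list 2. The NRF2 list had 1 fall among 18 at a median of -0.11, and the metal list 0 falls among 15 at a median of -0.08. Of the 418 genes that rose at 72 h, 413 were above 0 in this comparison (98.8%, against 47.6% of all genes), at a median of 0.26 beside 0.46 in their own. Of the 180 that fell, 170 were below 0 (94.4%, against 52.4% of all genes), at a median of -0.21 beside -0.37. Both comparisons share no array, but they come from 1 fit with a common estimate of the spread. IFIT1 differed by 2.43 between DMSO 48 h and DMSO 8 h, KLF10 by -0.79, NQO1 by -0.79 and CIRBP by -0.46, and all 4 passed (limma).

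**Figure D5:**
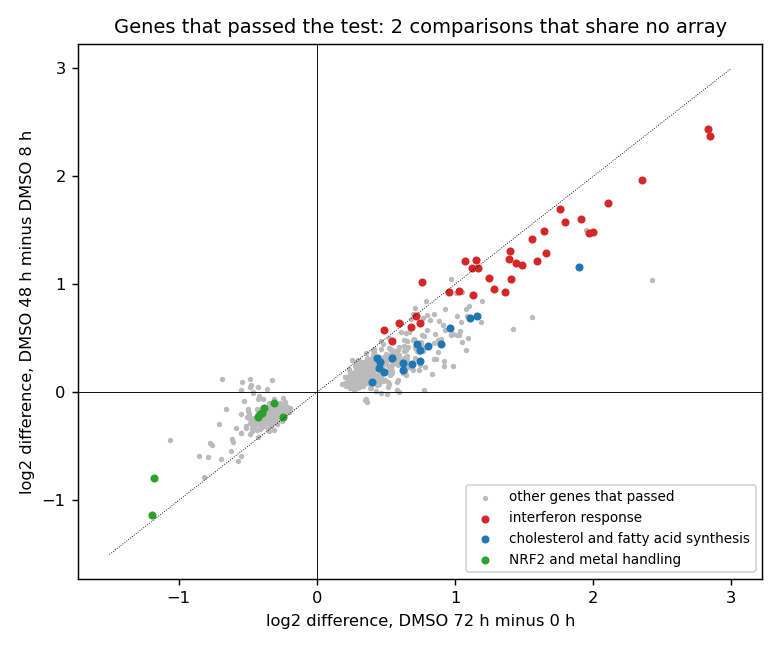
Log2 difference DMSO 72 h minus 0 h (x axis) and DMSO 48 h minus DMSO 8 h (y axis) for the 598 genes that passed the test at 72 h against 0 h; the dotted line marks equal differences. Rises have a median of 0.46 on the x axis and 0.26 on the y axis, and 413 of 418 lie above 0 on the y axis.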

How the data were processed

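Expression was measured in Karpas422 cells on 33 Affymetrix arrays, in 11 groups of 3 taken from the sample titles. The deposited values are log2 values per probe set, made with RMA by the authors, per the submitters' processing notes. The method subtracts background, makes the arrays' distributions equal and combines the probes of a set. Which version was used, and on which arrays jointly, is not given in the sources used here. RNA was labelled with a 3' kit, per the labels' protocols, so values depend on RNA integrity. For arrays, their number limits the precision.

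Of 54675 probe sets, 41091 had 1 gene symbol in the platform annotation, 1801 had several and 11721 were not named here. For each of 19775 genes the probe set with the highest mean over all arrays was kept, a choice for 10523 genes with more than 1. Tests used limma 3.58.1 under R 4.3.3 (lmFit and eBayes, two-sided, 1 mean per group, 22 residual degrees of freedom), with Benjamini-Hochberg adjustment over all genes and a threshold of 0.05. Differences carry their limma SE. On simulated data for DMSO 72 h minus 0 h (19775 genes, 200 changed) the fit recovered 55.9%, 95.5% and 100% of log2 changes of 0.5, 1 and 2, with 17 false calls. The simulated noise was independent for each gene, without array deviations that many genes share. These values are therefore not an error rate for the calls on the real arrays.

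The 30 pathway and 5 marker lists, the comparisons and the rule for named genes were chosen with earlier results of these data known, so the lists are described by counts and medians, with no test. The rule names the 14 largest rises and falls that passed without overlap and above the lowest array median, the 3 members of each list with the smallest p, the 4 largest rises and falls by the same criteria in each other comparison, and EED, EZH2, EZH1 and SUZ12. List members named outside it were chosen after their values were seen.

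Deviations from the group means of arrays with the same number correlated at 0.171, -0.128 and 0.15 between DMSO 72 h and 0 h. Between DMSO 72 h and DMSO 48 h they correlated at 0.11, 0.131 and 0.188. All of these are weak, and those with 0 h differed in sign, so they do not settle whether the numbers pair arrays. No other batch is given in the labels.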

Additional observations from a re-analysis of the deposited data

Results flagged for a closer look

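The change from 0 h differed between 72 h and 8 h of vehicle for 370 of 19775 genes, tested as DMSO 72 h minus DMSO 8 h, in which the arrays at 0 h cancel. Of these 259 were higher at DMSO 72 h and 111 lower.

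Of 13522 probe sets with several gene symbols or none, which stand outside the gene results, 85 passed the same test between DMSO 72 h and 0 h (0.629%), 64 of them higher and 21 lower at DMSO 72 h.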

How the results depend on the processing

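The count of 598 calls (418 rises, 180 falls) for DMSO 72 h minus 0 h depended on the fit. The 6 arrays alone gave 155 (141 rises, 14 falls). Restricting to genes above the median level gave 1019 (666 and 353), and leaving out DMSO 6-day replicate 3, which had the lowest r in its group and was chosen after seeing the data, gave 953 (653 and 300). The replicate block gave 941 calls, including 335 falls, and whether the numbers pair these groups is not settled. Falls were 394 with quantile normalization again, 114 with the mean of probe sets, 271 with a trended robust fit and 274 with array weights. Leaving out 1 array gave 324 to 525 calls (249 to 357 rises, 75 to 168 falls). For DMSO 72 h minus DMSO 8 h, 370 became 77 with 6 arrays, 588 with the block, 603 with quantile normalization, 678 above the median level, 788 with array weights, 600 without DMSO 6-day replicate 3, and 166 to 310 without 1 array. For DMSO 72 h minus DMSO 48 h, 0 became 1 with the block. For DMSO 48 h minus DMSO 8 h, 95 became 34 with 6 arrays, 151 with the block, 171 above the median level, 149 with the trended fit, 365 with array weights, 140 without DMSO 6-day replicate 3, and 53 to 97 without 1 array. Fewer arrays leave fewer degrees of freedom, and other causes were not tested. Centring on array medians ended the calls of ARRDC3, WSB1, CRELD2, CANX and SEC11C, quantile normalization those of RBKS, PFKFB4, WSB1 and CIITA, and array weights those of WSB1, CTH and CIITA. Of the 66 named genes that passed, 27 did so under every alternative run, and over 1120 pairs of gene and alternative 958 kept their call, 162 lost it and 0 reversed. Among named genes that did not pass, SUZ12 was -0.023 with the mean of probe sets, and EED ranged from -0.0198 (without 0 h replicate 2) to 0.0244 (without 0 h replicate 3) over the single arrays left out, and was -0.00602 without DMSO 72 h replicate 1. Falls in the NRF2 list ranged from 1 to 7 and in the metal list from 0 to 7 over the alternatives other than single arrays, and in the MYC list from 0 to 9.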
